A study of Mus musculus and Homo sapiens with 24 samples.

Results

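The genes described here encode the muscle nicotinic acetylcholine receptor and the machinery that gathers it under the motor nerve ending. They are 10 genes, chosen by symbol: the receptor subunits CHRNA1, CHRNB1, CHRND, CHRNG and CHRNE, and the clustering genes AGRN, LRP4, MUSK, DOK7 and RAPSN. All 10 were found among the 56748 gene rows of the mouse table and among the 58735 rows of the human table. They were followed in C2C12, a mouse skeletal myoblast line, at days 0, 1 and 6, and in LHCN-M2, a human skeletal myoblast line immortalised with TERT and CDK4, at days 0, 1 and 12. Each of the 6 groups had 4 libraries of polyadenylated RNA, 24 in all, and every sample carried the genotype label control. The labels name no nerve and no added agent, each line is 1 established line, and whether the 4 libraries of a group came from separate cultures is not given in the sources used here. The p-values therefore rest on how far these libraries differ from one another, a spread that may be technical.

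As background, the muscle receptor is a pentamer of α, β and δ subunits with a γ subunit in the fetal form and an ε subunit in the adult form. In developing muscle the γ subunit is made along the whole fibre, and in innervated muscle it is replaced by ε, which is transcribed by the nuclei under the nerve ending. Agrin released by the nerve binds LRP4, LRP4 activates the kinase MuSK together with its adaptor DOK7, and rapsyn anchors the clustered receptors. Myogenic transcription factors such as MyoD and myogenin bind the E-box motif in promoters of receptor subunit genes.

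Promoter sequence from RefSeq (mouse build GRCm38.p6) was matched by symbol for 7 of the 10 mouse genes, in 9 windows, and the 250 bases before each annotated start were searched on both strands for the E-box CANNTG, its form CAGCTG and the N-box CCGGAA, the motif bound by GABP. CAGCTG and CCGGAA do not overlap each other, and every CAGCTG is also a CANNTG. Below are the windows of the 4 genes in which CAGCTG was found, in which the data show different courses: the strongly rising Chrna1 (chr2:73580339-73580588, minus strand) and Chrng (chr1:87205561-87205810, plus strand), the barely detected Chrne (chr11:70619195-70619444, minus strand), and Musk (chr4:58285712-58285961, plus strand). Capitals mark CAGCTG in all 4 and also CCGGAA in Chrne.
Chrna1: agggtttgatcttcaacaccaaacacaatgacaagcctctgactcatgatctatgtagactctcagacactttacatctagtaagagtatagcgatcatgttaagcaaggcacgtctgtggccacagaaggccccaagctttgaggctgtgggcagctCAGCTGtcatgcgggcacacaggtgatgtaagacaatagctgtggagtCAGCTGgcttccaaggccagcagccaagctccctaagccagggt
Chrng: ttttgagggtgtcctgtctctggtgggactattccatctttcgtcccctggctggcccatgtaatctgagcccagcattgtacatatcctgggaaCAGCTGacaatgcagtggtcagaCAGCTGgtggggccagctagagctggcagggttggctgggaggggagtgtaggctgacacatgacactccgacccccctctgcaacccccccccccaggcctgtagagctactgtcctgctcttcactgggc
Chrne: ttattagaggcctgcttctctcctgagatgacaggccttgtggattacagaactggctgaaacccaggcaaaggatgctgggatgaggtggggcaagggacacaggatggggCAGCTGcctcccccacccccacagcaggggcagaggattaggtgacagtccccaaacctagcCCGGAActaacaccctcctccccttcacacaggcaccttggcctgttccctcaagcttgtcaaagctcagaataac
Musk: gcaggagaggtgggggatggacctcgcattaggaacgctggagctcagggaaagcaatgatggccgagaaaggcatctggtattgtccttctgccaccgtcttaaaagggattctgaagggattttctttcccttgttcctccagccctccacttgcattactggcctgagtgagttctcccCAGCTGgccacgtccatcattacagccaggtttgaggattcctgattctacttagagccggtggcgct
The Chrna1 window held 2 CAGCTG matches, the nearer beginning 44 bases before the start, and the Chrng window held 2, the nearer 132 bases before it. Chrne and Musk held 1 each, 138 and 68 bases before the start, and Chrne alone of the 9 windows held CCGGAA, 1 match. The windows of Chrnb1, Dok7 and Agrn held no CAGCTG, although Chrnb1 held 3 CANNTG matches. Among 32851 mouse promoter windows of the same length, 66.2% held CANNTG, 13% held CAGCTG and 12% held CCGGAA. A match is a description of these letters and not evidence of binding.

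The libraries held 32795699 to 43827517 counts each in C2C12, and 33030258 to 48546621 each in LHCN-M2. Levels are given as CPM on TMM-scaled library totals, and as RPKM, the CPM per kilobase of the gene length in the tables, where genes are compared with each other. On the third principal component of LHCN-M2, replicate 2 of day 0 stood at -72.5 against 19.1 to 29.9 for the rest of its group, and replicate 1 of day 12 at -22.3 against 4.41 to 9.27. Results of LHCN-M2 that change without these libraries are given with the values without them. The summed level of 10 skeletal muscle markers went from 261 to 273 CPM at day 0 to 405 to 452 CPM at day 1 and 2940 to 3110 CPM at day 6 in C2C12, and from 466 to 774 CPM to 1845 to 2173 CPM and 6349 to 7470 CPM in LHCN-M2, where MYOG and MYMK were at 0 counts at day 0. Single genes weigh most in these sums: Des averaged 234 CPM at day 0 of C2C12. MYH3, DES and TTN averaged 2496, 1874.5 and 1254 CPM at day 12 of LHCN-M2. MYOD1 and CDH15 of LHCN-M2 had lower means at day 12 (117 and 285 CPM) than at day 1 (261 and 305 CPM). In RNA from a whole culture, more differentiated cells and more RNA per cell cannot be told apart. Among motor neuron markers, CHAT, SLC18A3 and MNX1 were at 0 counts at every day in both lines, while NEFH averaged 24.4, 24.9 and 15.3 CPM by day in LHCN-M2 and Isl1 averaged 5.43, 4.56 and 0.384 CPM in C2C12. PRPH and SLC5A7 averaged at most 0.858 and 0.221 CPM in any group. The summed level of 8 fibroblast markers in LHCN-M2 was 10504 to 10876 CPM at day 0, 14495 to 16817 CPM at day 1 and 24191 to 25199 CPM at day 12, with no overlap. In C2C12 it was 14393 to 16820 CPM, 14196 to 15474 CPM and 10662 to 11138 CPM at days 0, 1 and 6. The collagen genes COL1A1, COL1A2 and COL3A1 had the highest levels in every group and weigh most in these sums. Some markers went against the sum of their line. THY1 averaged 200, 145 and 61.5 CPM by day in LHCN-M2. Dcn averaged 9.91, 157 and 288 CPM, and Lum 0.0151, 1.57 and 9.22 CPM, by day in C2C12. TCF21 had at most 3 counts in any group. The part of these markers in the results was not tested.

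Receptor and junction genes were mostly higher in differentiating cells than at day 0, in both lines, but each line had its own exceptions. A gene was called at an adjusted p below 0.05 in edgeR's quasi-likelihood test over all genes of the table. In C2C12 at day 1, 8 of the 10 genes were higher than at day 0 and 1, Musk, was lower, beside 25.9% higher and 24.4% lower of all genes tested; Chrne did not pass the filter on low counts and was not tested. At day 6 against day 0, 8 were higher and 1, Agrn, was lower, beside 33.1% and 32.5%. From day 1 to day 6, 7 were higher, 1 (Agrn) was lower and Lrp4 was not called, beside 32.8% and 28.6%. In LHCN-M2, 9 of the 10 were higher and 0 lower at day 1 than at day 0, beside 23.4% and 23.5% of all genes tested, and at day 12 against day 0 the count was again 9 and 0, beside 27.1% and 27.5%. CHRNE was the gene not called both times, at an unadjusted p of 0.321 and 0.485. From day 1 to day 12, 6 were higher and 0 lower, beside 20.9% and 18.8%, and CHRNE, MUSK, RAPSN and AGRN were not called, each at an unadjusted p of 0.107 or above. DESeq2 likewise called 0 of the genes lower in the 3 LHCN-M2 comparisons.

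**Figure D1:**
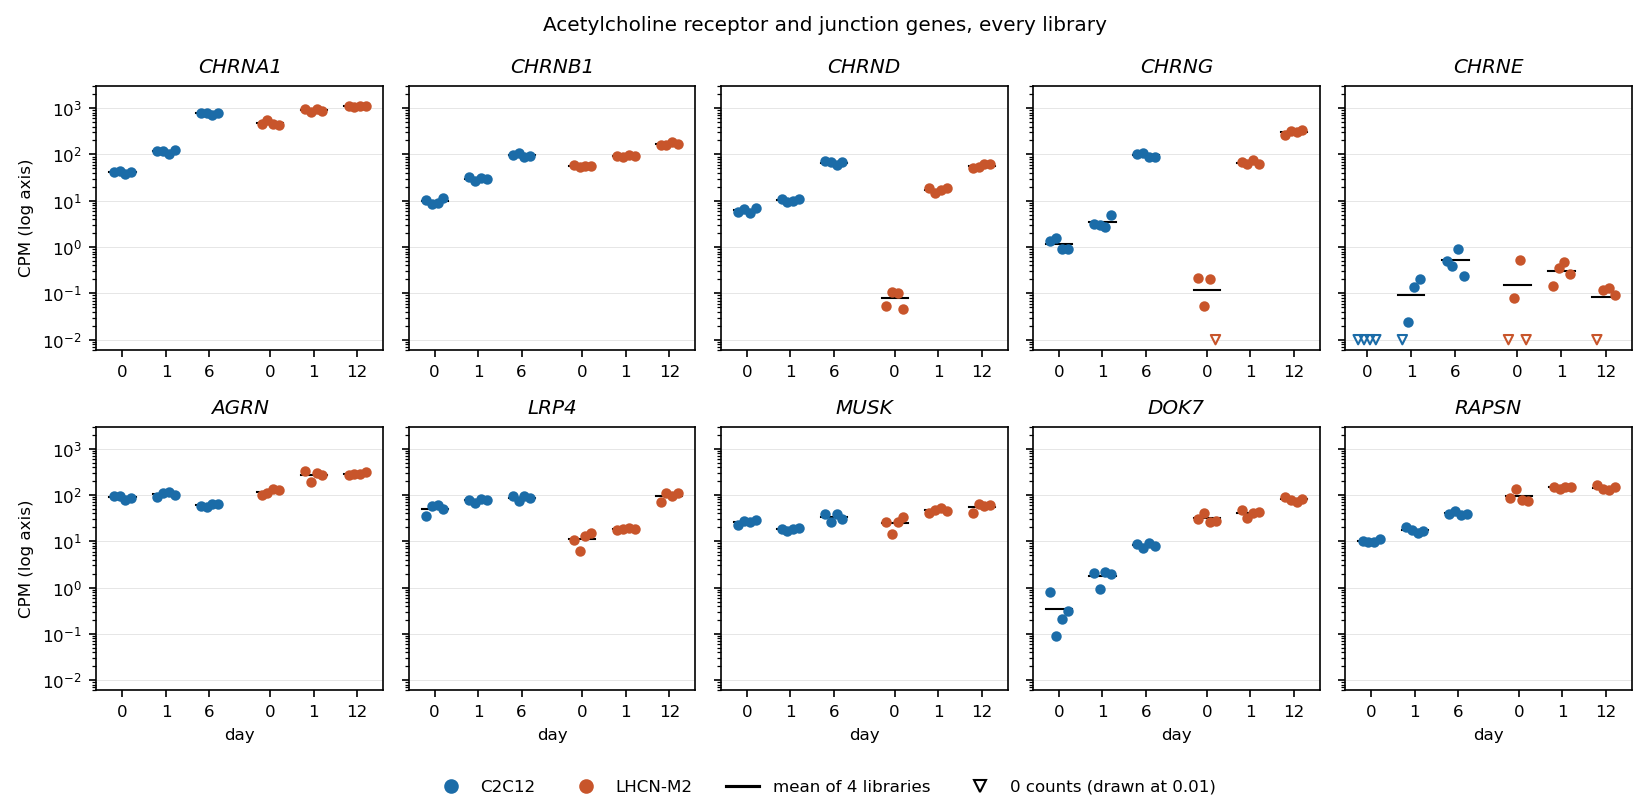
CPM of the 10 genes in every library on a log axis, by day, C2C12 in blue and LHCN-M2 in orange; black bars are the means of 4 libraries and open triangles are libraries at 0 counts. CHRND and CHRNG of LHCN-M2 stay at or below 0.216 CPM at day 0 and at or above 15.0 CPM at day 1, and CHRNE stays below 1 CPM in every library.

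CHRNA1 encodes the α subunit, which forms the main part of the acetylcholine binding sites. Chrna1 of C2C12 measured 41.3, 42.8, 37.4 and 42.0 CPM at day 0, 120, 116, 104 and 126 CPM at day 1, and 766, 803, 722 and 778 CPM at day 6. The 3 days did not overlap, and each later day was higher than the one before. The rise was 1.51 (SE 0.06, adjusted p = 4.8e-14) on the log2 scale from day 0 to day 1, and 4.23 (SE 0.07, adjusted p = 6.4e-21), or 18.8-fold, from day 0 to day 6. CHRNA1 of LHCN-M2 measured 447, 561, 455 and 438 CPM at day 0, 974, 820, 957 and 881 CPM at day 1, and 1085, 1059, 1113 and 1095 CPM at day 12. Replicate 2 was the highest library of day 0, and the days did not overlap. The gene was 1.91-fold higher at day 1 than at day 0 (log2 0.93, SE 0.08, adjusted p = 2.9e-07) and 2.29-fold higher at day 12 (log2 1.19, SE 0.08, adjusted p = 1.3e-08). The step from day 1 to day 12 was small (log2 0.26, SE 0.08, adjusted p = 0.0221) and was lost without replicate 2 of day 1 (adjusted p = 0.0776), replicate 4 of day 1 or replicate 3 of day 12. CHRNA1 lies on chr2:174747592-174787935 of GRCh38, minus strand.

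CHRNB1 encodes the β subunit, the contact of the receptor with rapsyn. In C2C12 it ranged from 8.56 to 11.2 CPM at day 0, 26.9 to 32.2 CPM at day 1 and 87.8 to 107 CPM at day 6. In LHCN-M2 it ranged from 53.5 to 58.4 CPM, 86.5 to 98.0 CPM and 160 to 182 CPM. In both lines the days did not overlap. The rise from day 0 to the last day was 9.65-fold in C2C12 (log2 3.27, SE 0.09, adjusted p = 2.1e-17) and 2.99-fold in LHCN-M2 (log2 1.58, SE 0.07, adjusted p = 7.9e-11).

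CHRND, the δ subunit, had a different starting point in each line. Chrnd of C2C12 was already present at day 0, at 5.76, 6.54, 5.49 and 7.03 CPM, moved to 10.8, 9.37, 9.99 and 10.8 CPM at day 1 and to 71.7, 68.7, 57.6 and 68.8 CPM at day 6. In LHCN-M2 the 4 libraries of day 0 held 2, 4, 4 and 2 counts of CHRND in all, and those of day 1 held 765, 672, 832 and 768. At day 12 they held 2214, 1817, 2404 and 2718 counts. The days did not overlap in either line. In C2C12 the rise was 1.65-fold by day 1 (log2 0.72, SE 0.10, adjusted p = 3.0e-06) and 10.7-fold by day 6 (log2 3.43, SE 0.10, adjusted p = 2.3e-17). In LHCN-M2 the fitted rise was 7.75 on the log2 scale by day 1 (SE 0.19, adjusted p = 3.7e-13), 1.74 more from day 1 to day 12 (SE 0.11, adjusted p = 9.0e-09), and 9.49 in all (SE 0.19, adjusted p = 1.7e-14). The SE, derived from the test's F value, is too small for the changes from day 0. Counting error alone is larger with 12 counts over that day.

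CHRNG encodes the fetal γ subunit. Among the receptor and clustering genes tested, it had the largest log2 change in each line at the last day against day 0. In LHCN-M2 its counts were 8, 2, 8 and 0 at day 0, 2837, 2748, 3679 and 2599 at day 1, and 11488, 10597, 11775 and 14727 at day 12. As with CHRND, the days did not overlap, and the gene went from at most 8 counts per library to at least 2599. The fitted change was 9.14 on the log2 scale at day 1 (SE 0.28, adjusted p = 2.2e-12) and 11.33 at day 12 (SE 0.28, adjusted p = 1.2e-13). With 18 counts over day 0, counting error alone is larger than this SE too. In C2C12 Chrng stood at 1.34, 1.54, 0.90 and 0.90 CPM at day 0, at 3.15, 3.05, 2.76 and 4.86 CPM at day 1, and at 102, 107, 89.2 and 90.0 CPM at day 6. Here the larger step came after day 1: the log2 change was 1.55 (SE 0.19, adjusted p = 8.2e-07) from day 0 to day 1 and 4.82 (SE 0.14, adjusted p = 7.1e-17) from day 1 to day 6, and the days did not overlap. On GRCh38 the genes are neighbours on the plus strand of chromosome 2: CHRND lies at chr2:232525993-232536667 and CHRNG at chr2:232539727-232546403, with 3059 bases between them.

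CHRNE, the adult ε subunit, stayed at the edge of detection. In C2C12 it had 0 counts in all 4 libraries of day 0, 0, 1, 6 and 8 counts at day 1, and 21, 13, 34 and 10 counts at day 6. The count of 0 at day 0 allows up to 0.0209 CPM over the group (3 counts, counting error only), so day 6, with a mean of 0.518 CPM, was at least 24.6-fold higher. All 4 libraries of day 6 lay above all of day 1, but the gene did not pass the filter; with no filter it was called higher at day 1 (adjusted p = 0.0047) and at day 6 (adjusted p = 8.5e-07) than at day 0. In LHCN-M2 the counts were 0, 3, 20 and 0 at day 0, 6, 16, 23 and 11 at day 1, and 0, 4, 5 and 4 at day 12. CHRNE passed the filter there through replicate 3 of day 0 and libraries of day 1, and none of the 3 comparisons was called. Without replicate 3 of day 0, day 1 was higher than day 0 (log2 3.44, adjusted p = 0.0266) and the sign of day 12 against day 0 turned from -0.81 to 1.58 (adjusted p = 0.302). That run leaves out the library with 20 of the 23 counts of day 0. It keeps 3 counts there, and CHRNE then passes the filter through day 1 alone, so no conclusion is drawn from it. The human gene span, chr17:4897774-4934438 on the minus strand, overlaps MINK1, GP1BA and C17orf107 on the other strand; MINK1 held 14645, 14573 and 9668 counts over the 4 libraries of days 0, 1 and 12. The strand setting of the counting is not given in the sources used here, so reads of these genes cannot be told apart from CHRNE reads where they overlap; in the mouse table Chrne overlaps 4930544D05Rik, with 0, 6 and 14 counts by day.

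Set against each other within a library, γ counts exceeded ε counts in every C2C12 library and in every LHCN-M2 library of days 1 and 12. In C2C12, 168 γ counts stood against 0 ε counts at day 0, 577 against 15 at day 1 and 14714 against 78 at day 6. Per kilobase, γ was at least 22.7 times ε at day 0 (3 ε counts allowed), 15.6 times at day 1 and 76.6 times at day 6. The γ share of the γ and ε counts was 97.5% at day 1 (95% exact interval 95.9 to 98.6) and 99.5% at day 6 (99.3 to 99.6). In LHCN-M2, 18 γ counts stood against 23 ε counts at day 0, a share of 43.9% (28.5 to 60.3). That share rests on single libraries: replicate 3 held 20 of the 23 ε counts, and without it 10 γ counts stood against 3 ε counts, a share of 76.9% (46.2 to 94.96), while without replicate 1 the share was 30.3% (15.6 to 48.7). Which form was in excess at day 0 was therefore not detectable at this depth. At day 1 the share was 99.5% (99.4 to 99.6) and at day 12, with 48587 γ against 13 ε counts, 99.97% (99.95 to 99.99). These intervals cover counting error only.

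The log2 γ to ε ratio per kilobase, with 0.5 counts added to each gene, was 0.71 ± 2.39 (SD, n = 4) at day 0, 7.95 ± 0.68 at day 1 and 12.24 ± 1.61 at day 12 in LHCN-M2. The added counts weigh in the values of days 0 and 12. Replicate 4 of day 0 held 0 counts of both genes (ratio 0.13). Replicate 1 held 0 ε counts at day 0 and at day 12 (ratios 4.22 and 14.62). The libraries of the 3 days did not overlap. Each pair of days gave p = 0.0286 in a two-sided exact permutation test, the smallest that 4 against 4 libraries allow, and 0.0571 after Benjamini-Hochberg adjustment over the 6 pairs of days, which misses 0.05. With 1 count added in place of 0.5, day 6 against day 0 of C2C12 also reached p at that minimum, and the adjusted p of these 4 pairs became 0.0429, so the call depends on the added count. In C2C12 the ratio was 5.07 ± 0.41 at day 0, 4.51 ± 1.84 at day 1 and 6.37 ± 0.81 at day 6, with overlapping libraries and exact permutation p of 0.543, 0.0857 and 0.143 (adjusted 0.543, 0.129 and 0.171) for day 1 against 0, 6 against 0 and 6 against 1. The C2C12 value of day 0 is set by the added counts, since ε was at 0: with 0.1 counts added, the change from day 0 to day 6 turned from 1.30 to -0.97. At the last days, the deposited counts thus hold the fetal subunit almost alone, with the limits on ε reads given above.

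Per kilobase of the deposited gene lengths, the make-up of the 5 subunit transcripts also differed by line and day. In C2C12, α held 60.6% of the summed RPKM at day 0, 62.7% at day 1 and 68.2% at day 6 (SD 1.86, 2.48 and 0.99, n = 4), while β went from 25.3% and 27.9% to 14.7% and γ from 1.83% and 1.95% to 9.07%. The β and γ shares of day 6 did not overlap those of the earlier days. In LHCN-M2 the α share went from 88.2% to 78.1% and 56.4% (SD 1.43, 0.62 and 1.95), and the γ share from 0.042% to 10.7% and 29.3% (SD 0.04, 0.46 and 2.03), with no overlap between days. The δ share was 12.2%, 7.35% and 7.90% in C2C12 and 0.022%, 2.30% and 4.60% in LHCN-M2. Shares are parts of 1 sum, so that more of one means less of the others, and they were not tested. Between the lines they also depend on the gene lengths. These are 4163 bases in mouse and 2615 in human for CHRNG, and 2531 and 4329 for CHRNB1. The longest coding Chrng transcript has 2780 bases, and with that length its C2C12 share would be higher.

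**Figure D2:**
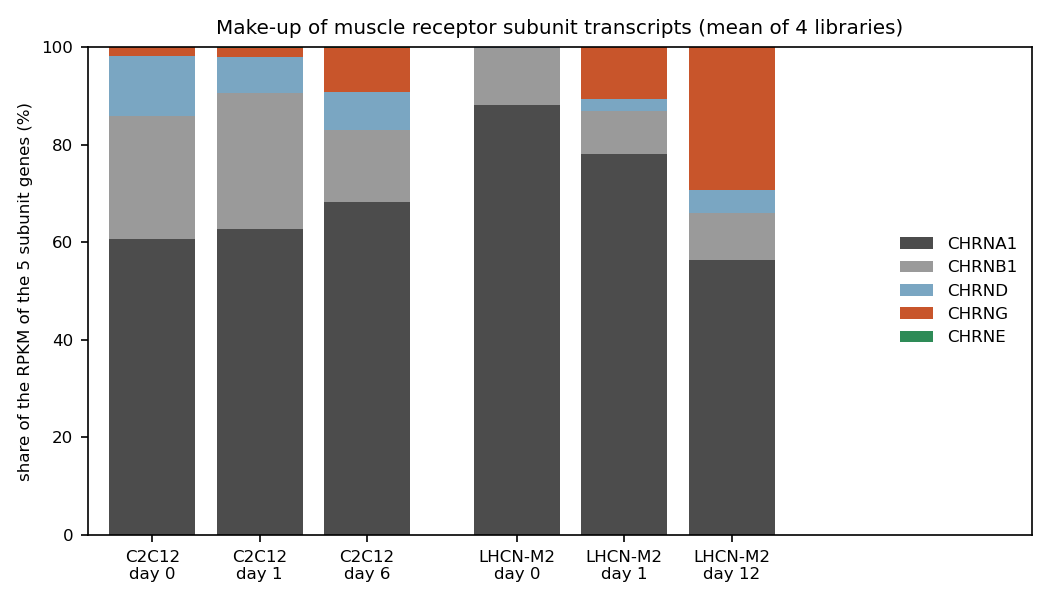
Share of each subunit gene in the summed RPKM of the 5 subunit genes, in percent, as the mean of 4 libraries per line and day. The γ share (orange, CHRNG) reaches 9.07% at day 6 of C2C12 and 29.3% at day 12 of LHCN-M2, and the ε share (CHRNE) is at most 0.128% in any group.

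AGRN encodes agrin, the secreted proteoglycan whose nerve-derived splice form triggers clustering; muscle cells make agrin too, and gene counts do not tell the splice forms apart. Agrn of C2C12 measured 95.9, 96.0, 79.0 and 85.6 CPM at day 0, 91.4, 111, 115 and 102 CPM at day 1, and 56.4, 55.6, 65.2 and 65.3 CPM at day 6. Day 6 lay below every earlier library, while days 0 and 1 overlapped. Agrn was slightly higher at day 1 (log2 0.23, SE 0.08, adjusted p = 0.0186) and fell by 0.56 from day 0 to day 6 (SE 0.08, adjusted p = 3.6e-06). AGRN of LHCN-M2 measured 98.3, 110, 132 and 125 CPM at day 0, 327, 189, 302 and 266 CPM at day 1, and 265, 288, 277 and 311 CPM at day 12. Days 1 and 12 lay above day 0 and overlapped each other. The change was 1.22 at day 1 (SE 0.14, adjusted p = 4.3e-06) and 1.29 at day 12 (SE 0.14, adjusted p = 1.7e-06) on the log2 scale, and 0.07 between these days (SE 0.14, adjusted p = 0.719).

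LRP4 is the agrin receptor of the muscle membrane. In C2C12 it measured 34.4, 57.3, 60.2 and 50.0 CPM at day 0, 78.1, 68.6, 82.3 and 79.6 CPM at day 1, and 94.0, 72.3, 94.9 and 85.4 CPM at day 6. All libraries of days 1 and 6 exceeded day 0. The log2 change was 0.61 by day 1 (SE 0.12, adjusted p = 2.7e-04) and 0.78 by day 6 (SE 0.12, adjusted p = 9.6e-06), with 0.17 between them (SE 0.12, adjusted p = 0.235). LRP4 of LHCN-M2 measured 10.8, 6.18, 12.8 and 14.7 CPM at day 0, 17.2, 18.1, 19.3 and 18.2 CPM at day 1, and 70.5, 111, 96.1 and 111 CPM at day 12. The days did not overlap, and the lowest library of day 0 and the lowest of day 12 were the ones that stood apart on the third component. The rise was 1.64-fold by day 1 (log2 0.71, SE 0.21, adjusted p = 0.0102) and 8.72-fold by day 12 (log2 3.12, SE 0.22, adjusted p = 9.2e-09). Without both libraries the day 12 value was 3.07.

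MUSK, the receptor kinase at the centre of the pathway, changed by at most 2.21-fold in either line. In C2C12 it was the 1 gene of the 10 that fell at day 1. The 22.4, 27.0, 25.5 and 28.4 CPM at day 0 became 18.0, 16.6, 18.6 and 19.0 CPM at day 1, and 38.2, 26.1, 38.6 and 30.2 CPM at day 6. Day 1 lay below both other days, and replicate 2 of day 6 lay within the range of day 0. Musk fell by 0.52 by day 1 (SE 0.11, adjusted p = 4.9e-04), then rose by 0.88 from day 1 to day 6 (SE 0.11, adjusted p = 4.4e-07), which left it 0.37 above day 0 (SE 0.11, adjusted p = 0.0052). In LHCN-M2 MUSK measured 26.2, 14.3, 26.4 and 33.6 CPM at day 0, 40.4, 48.0, 51.9 and 45.6 CPM at day 1, and 41.6, 62.7, 57.0 and 60.9 CPM at day 12. Both later days lay above day 0, with log2 changes of 0.89 (SE 0.20, adjusted p = 0.0018) and 1.14 (SE 0.20, adjusted p = 1.8e-04). Days 1 and 12 overlapped and were not called different (log2 0.26, SE 0.20, adjusted p = 0.326). Without the LHCN-M2 libraries that stood apart, replicate 2 of day 0 and replicate 1 of day 12, day 12 was called higher than day 1 (log2 0.37, adjusted p = 0.0012).

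DOK7, the cytoplasmic adaptor that MuSK needs for full activity, rose from a very low level in C2C12. The counts were 31, 3, 7 and 12 at day 0, 94, 39, 95 and 77 at day 1, and 358, 234, 336 and 334 at day 6. No library of a later day fell to the range of the one before. The log2 change was 2.31 at day 1 (SE 0.38, adjusted p = 3.3e-05) and 4.50 at day 6 (SE 0.37, adjusted p = 8.4e-10); replicate 1 held most of the day 0 counts, and without it these values were 3.12 and 5.27. In LHCN-M2 DOK7 measured 30.2, 39.9, 26.5 and 27.9 CPM at day 0, 46.3, 32.4, 40.3 and 43.0 CPM at day 1, and 89.7, 77.9, 71.7 and 82.3 CPM at day 12. Days 0 and 1 overlapped and day 12 lay above both. The change by day 1 was 0.38 (SE 0.13, adjusted p = 0.0308), a call that was lost without any 1 of 5 libraries (replicates 1, 3 and 4 of day 0, replicates 1 and 4 of day 1; adjusted p up to 0.0992) and in a fit of only those days (adjusted p = 0.0555). Replicate 2, which stood apart on the third component, was the highest library of day 0, and without it the change was 0.54 (adjusted p = 1.6e-04). The change by day 12 was 1.37 (SE 0.14, adjusted p = 5.8e-07), or 2.58-fold.

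RAPSN encodes rapsyn, the scaffold that binds the receptor from inside the cell. In C2C12 it ranged from 9.59 to 11.5 CPM at day 0, 15.3 to 19.8 CPM at day 1 and 37.2 to 44.6 CPM at day 6, with no overlap, and the log2 change by day 6 was 1.97 (SE 0.09, adjusted p = 1.5e-13). In LHCN-M2 it measured 86.0, 136, 75.9 and 73.7 CPM at day 0, 149, 136, 146 and 150 CPM at day 1, and 162, 135, 130 and 145 CPM at day 12. Replicate 2 of day 0 reached the level of the later days, and the other libraries of day 0 lay below them. The log2 change was 0.65 by day 1 (SE 0.16, adjusted p = 0.0031) and 0.62 by day 12 (SE 0.16, adjusted p = 0.0034), and without that replicate 0.91 and 0.87. Days 1 and 12 did not differ by the test (log2 -0.02, SE 0.16, adjusted p = 0.921).

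The order of the levels per kilobase changed with differentiation in both lines. At day 0 of C2C12, Agrn (9.60 RPKM) and Chrna1 (9.32 RPKM) were highest and overlapped, followed by Musk, Rapsn, Lrp4 and Chrnb1, each overlapping the next. Chrnd (1.89 RPKM), Chrng (0.281 RPKM), Dok7 (0.082 RPKM) and Chrne (0) came below without overlap. At day 6 Chrna1 led with 175 RPKM, then Chrnb1 with 37.7 RPKM; Chrng (23.3 RPKM), Rapsn (22.1 RPKM) and Chrnd (20.3 RPKM) overlapped in that order, as did Musk (8.81 RPKM), Lrp4 (8.25 RPKM) and Agrn (6.53 RPKM), above Dok7 (1.93 RPKM) and Chrne (0.307 RPKM). In LHCN-M2 CHRNA1 led at every day, with 97.9, 187 and 224 RPKM. RAPSN was second at days 0 and 1 (48.4 and 75.8 RPKM), and CHRNG, near the bottom at day 0 with 0.046 RPKM and overlapping CHRNE and CHRND there, was second at day 12 with 117 RPKM. CHRNE was lowest at days 1 and 12, with 0.108 and 0.030 RPKM.

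The fold changes were then compared between the lines gene by gene, as the interaction of line and day in 1 edgeR fit of all 24 libraries; the last day is day 6 in C2C12 and day 12 in LHCN-M2, so the times differ. Of the 9 genes tested (all but CHRNE), 4 had a larger log2 change in LHCN-M2 at day 1 (CHRND, CHRNG, MUSK and AGRN), 3 a smaller one (CHRNA1, CHRNB1 and DOK7) and 2 were not called (RAPSN and LRP4), beside 26.0% larger and 34.0% smaller of all 10953 symbols tested. At the last day against day 0 the count was 5 larger and 4 smaller, beside 31.2% and 40.0%. The excess of smaller changes over all symbols depended on the scaling: with TMM over all 24 libraries the shares were 30.9% larger and 28.3% smaller at day 1 and 35.1% and 35.6% at the last day, and the calls of the 9 genes were the same. From day 1 to the last day, 2 were larger (LRP4 and AGRN) and 7 smaller, beside 27.0% and 29.9%. Over the whole course the CHRNG change was 4.96 larger in LHCN-M2 (SE 0.42, adjusted p = 1.4e-10) and the CHRND change 6.06 larger (SE 0.24, below counting error, adjusted p = 8.8e-17). The day 0 mean of CHRND was 0.078 CPM in LHCN-M2 against 6.21 CPM in the separately normalised C2C12 table. Its means at the last day were 57.4 and 66.7 CPM. The CHRNA1 value was -3.04 (SE 0.11, adjusted p = 1.3e-17), a smaller change in LHCN-M2, whose day 0 mean was 476 CPM against 40.9 CPM in C2C12. From day 1 to the last day the CHRNG value was -2.62 (SE 0.22, adjusted p = 3.7e-10). On the log2 scale the larger part of the CHRNG change came before day 1 in LHCN-M2 and after it in C2C12. In CPM the larger step came after day 1 in both lines. The means by day were 0.119, 66.9 and 306 CPM in LHCN-M2 and 1.17, 3.46 and 97.0 CPM in C2C12. AGRN went in opposite directions at the last day, down in C2C12 and up in LHCN-M2, with a difference of 1.85 (SE 0.18, adjusted p = 1.4e-09). The MUSK difference from day 1 to the last day (-0.63, SE 0.24, adjusted p = 0.0327) was lost when any 1 of 9 libraries was left out, with adjusted p up to 0.102: all 4 of day 1 and replicates 1 and 3 of day 6 in C2C12, and replicates 2 and 3 of day 1 and replicate 1 of day 12 in LHCN-M2. These comparisons share the libraries of day 0 or day 1.

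**Figure D3:**
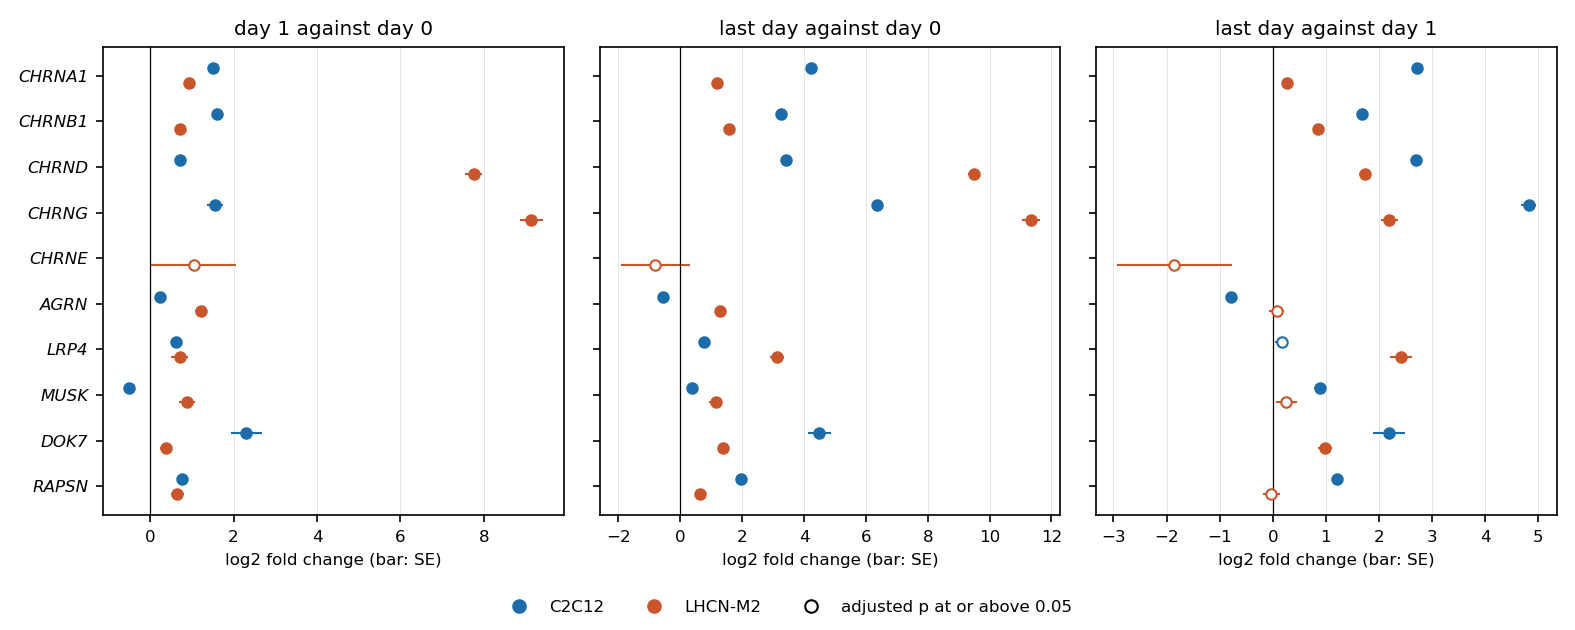
Log2 fold changes of the 10 genes in C2C12 (blue) and LHCN-M2 (orange), for the 3 pairs of days. Bars are the SE, which is too small for the changes of CHRND and CHRNG from day 0 in LHCN-M2. Open circles are at an adjusted p of 0.05 or above. CHRND and CHRNG of LHCN-M2 lie at 7.75 and 9.14 at day 1, and AGRN lies on opposite sides of 0 at the last day against day 0.

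Other genes known from the junction split in both directions. Of 36 such genes, chosen as synaptic matrix, signalling and scaffold genes, 32 were tested in C2C12: 18 were higher and 11 lower at day 6 than at day 0, beside 33.1% higher and 32.5% lower of all genes tested, with a median log2 change of 0.30 against -0.03 over all genes tested. The count of lower genes is thus near the share of all genes. In LHCN-M2, 35 were tested, 19 were higher and 9 lower at day 12, beside 27.1% and 27.5%, with a median of 0.70 against -0.01. At day 1 the counts were 21 higher and 5 lower in C2C12, beside 25.9% and 24.4%, and 18 and 9 in LHCN-M2, beside 23.4% and 23.5%. SCN4A, the muscle sodium channel gathered at the junction, had 0 counts at day 0 of LHCN-M2 and a mean of 50.7 CPM at day 12, at least 2615-fold higher. In C2C12 it went from 0.051 to 2.57 CPM (log2 5.47, SE 0.65, adjusted p = 7.1e-07). ERBB3, a neuregulin receptor also expressed by Schwann cells, went from 0.067 to 44.4 CPM in LHCN-M2 (log2 9.37, SE 0.33, adjusted p = 5.4e-12) and from 1.27 to 14.0 CPM in C2C12 (log2 3.47, SE 0.19, adjusted p = 1.7e-12). Beside it, the 8 Schwann cell markers, ERBB3 among them, summed to 25.9 to 36.1 CPM at day 0 and 184 to 192 CPM at day 12 in LHCN-M2, and to 147 to 176 CPM and 150 to 156 CPM at days 0 and 6 in C2C12, with SOX10 at 0 counts at all days of C2C12; their part was not tested.

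The synaptic esterase also rose. ACHE, which splits acetylcholine, was at 0.745 CPM at day 0 and 8.19 CPM at day 12 in LHCN-M2 (log2 3.46, SE 0.27, adjusted p = 3.6e-08), and at 0.289 and 0.825 CPM in C2C12 (log2 1.49, SE 0.59, adjusted p = 0.0315, with overlapping libraries). COLQ, its collagen tail, went from 0.069 to 2.04 CPM in C2C12 (log2 4.82, SE 0.59, adjusted p = 3.6e-07) and from 0.577 to 1.56 CPM in LHCN-M2 (log2 1.43, SE 0.44, adjusted p = 0.0121, overlapping). Sntb1, a syntrophin of the dystrophin complex, rose by 2.92 (SE 0.13, adjusted p = 4.3e-14) in C2C12. SNTB1 rose in LHCN-M2 as well, with a difference of 0.03 between the log2 changes (SE 0.15, adjusted p = 0.852). The laminin chains differed: Lama4 fell by 3.53 (SE 0.08, adjusted p = 2.9e-19) and Lamb2 fell by 1.86 (SE 0.07, adjusted p = 1.8e-15) in C2C12, and LAMA5 rose by 4.07 (SE 0.15, adjusted p = 9.0e-12) in LHCN-M2. In the other line, and named after their values were seen, Lama5 rose by 0.50 in C2C12 (SE 0.08, adjusted p = 1.7e-05) and LAMB2 rose by 0.89 in LHCN-M2 (SE 0.07, adjusted p = 2.3e-08). The basement membrane collagens COL4A3 and COL4A4 rose by 3.92 and 3.88 in LHCN-M2 (SE 0.63 and 0.57, adjusted p = 8.1e-05 and 3.3e-05). LAMA4, named from its C2C12 value, went the other way in LHCN-M2, from 4.51 CPM at day 0 to 47.0 CPM at day 12, against 380 to 32.8 CPM in C2C12, a difference of 6.91 (SE 0.18, adjusted p = 2.3e-20) between the log2 changes.

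**Figure D4:**
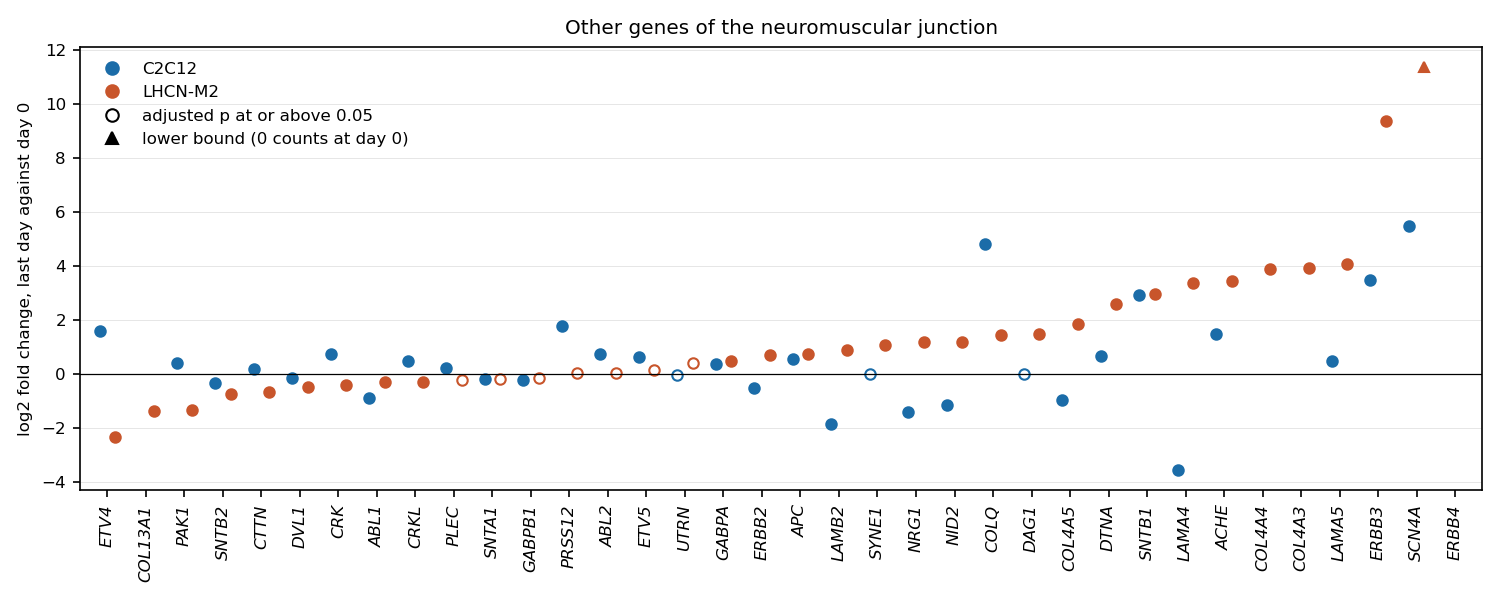
Log2 fold change at the last day against day 0 of 36 other junction genes, C2C12 in blue and LHCN-M2 in orange, ordered by the LHCN-M2 value; open circles are at an adjusted p of 0.05 or above, the triangle is a lower bound, and a gene without a point was not tested in that line. LAMA4 lies at -3.53 in C2C12 and above 0 in LHCN-M2, and SCN4A and ERBB3 lie highest in LHCN-M2.

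Regulators of receptor gene transcription were followed beside their targets, 15 of 16 tested in each line. At the last day 7 were higher and 6 lower than at day 0 in C2C12, beside 33.1% and 32.5% of all genes tested, with a median log2 change of 0.41. In LHCN-M2 the counts were 6 and 7, beside 27.1% and 27.5%, with a median of -0.05. Myogenin, an activator of receptor subunit genes, rose in C2C12 from 3.75 CPM (Myog) to 13.7 and 143 CPM, and in LHCN-M2 MYOG had 0 counts at day 0, 79.8 CPM at day 1 and 362 CPM at day 12. MYOD1 went from 2.90 to 5.98 and 19.5 CPM in C2C12 and from 55.6 to 261 and 117 CPM in LHCN-M2. The inhibitor ID3 fell by 2.54 (SE 0.08, adjusted p = 2.2e-16) in C2C12 and fell by 3.92 (SE 0.14, adjusted p = 6.8e-12) in LHCN-M2. ID2, of the same family, rose by 1.81 in C2C12 (SE 0.14, adjusted p = 3.1e-10) and fell by 2.09 in LHCN-M2 (SE 0.10, adjusted p = 2.1e-10). ID1 fell by 6.74 (SE 0.25, adjusted p = 8.8e-12) and MYF5 fell by 4.24 (SE 0.11, adjusted p = 1.3e-13) in LHCN-M2. The difference between the lines (LHCN-M2 minus C2C12) was -7.18 for ID1 and -5.04 for MYF5 (SE 0.28 and 0.13, adjusted p = 7.9e-17 and 2.4e-20). Both differences exceed the falls, so neither gene fell in C2C12. The histone deacetylase genes differed: Hdac9 rose by 2.70 and Hdac4 fell by 1.09 in C2C12, and HDAC4 rose by 1.64 in LHCN-M2 (SE 0.15, 0.10 and 0.12, adjusted p = 1.9e-12, 5.3e-09 and 2.2e-08).

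The 5 glycosylation genes in which mutations cause congenital myasthenia, all tested, showed 3 higher and 2 lower at day 6 in C2C12 (beside 33.1% and 32.5% of all genes) and 1 higher and 3 lower at day 12 in LHCN-M2 (beside 27.1% and 27.5%). GFPT1, the first enzyme of the hexosamine pathway, fell by 0.85 in C2C12 (SE 0.05, adjusted p = 4.8e-12) and rose by 0.62 in LHCN-M2 (SE 0.08, adjusted p = 1.7e-05), while GMPPB rose by 0.92 in C2C12 and fell by 1.03 in LHCN-M2 (SE 0.10 in both, adjusted p = 4.2e-08 and 4.5e-07). Of the other 11 nicotinic subunits, which form receptors of neurons and other cells, 1 passed the filter in C2C12 and was not called at day 6, and 5 passed in LHCN-M2, where CHRNA5 (1.57 to 0.591 CPM) and CHRNA9 (1.77 to 0.793 CPM) were lower at day 12 (adjusted p = 0.0104 and 0.0057) and 0 were higher.

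Genes with the most similar course were found by the distance between the centred log2 CPM means of the 3 days, among 14034 C2C12 and 14784 LHCN-M2 genes; with 3 points per line, many genes lie close. Nearest to Chrng in C2C12 were Tcap (distance 0.05), Ly6g2, Srpk3, Ckm and Gm14635, and nearest to Chrna1 were Gm45879 (0.07), H19, Dync1i1, Dio2 and Slc6a7. In LHCN-M2 CHRNG had only distant neighbours, RYR1 at 0.53, then HJV, MYOG, TNNI1 and MYL4 at 1.33 to 1.51. CHRNA1 of LHCN-M2 was nearest to MUSK (0.0135). Outside the receptor and clustering genes, CHRNA1 was nearest to BAZ2B (0.0143), KCNQ1OT1, LINC00475, ITM2C and DHFR2. The course of CHRNE rested on 23, 56 and 13 counts per group, with no comparison called, and its neighbours are not given. Musk of C2C12, with its dip at day 1, was nearest to Mxd3, Ap2m1-ps, Cenpf, Crls1 and Farsb, all within 0.02. MUSK of LHCN-M2 was nearest to CHRNA1 (0.0135), then to LINC00475, KCNQ1OT1, BAZ2B, MIR186 and CASP9, within 0.04.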

How the data were processed

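RNA was measured as reads per gene in 12 C2C12 and 12 LHCN-M2 libraries. The deposited tables hold whole-number counts per gene with no normalization, and a gene length column, likewise deposited, whose definition is not given in the sources used here. The submitters' processing notes list featureCounts 2.0.6, StringTie 2.2.3, HISAT2 2.2.1 and fastp; the strand setting of the counting is not given in the sources used here, and the labels mention a strand-marking option without saying that it was used. Reads from a gene and from an antisense partner that overlaps it are then not separable.

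Tests within a line used edgeR 4.0.16 in R 4.3.3. The filter filterByExpr (minimum count 10) left 17065 C2C12 and 18214 LHCN-M2 genes, TMM scaled the libraries, and 1 quasi-likelihood fit of 12 libraries with 1 coefficient per day gave Benjamini-Hochberg adjusted p-values over all genes tested, with a threshold of 0.05. The difference between the lines was an interaction over 10953 of 16608 symbols shared ignoring case, normalised within each line; symbols are no orthology table. CPM and RPKM were computed here from the deposited counts. Where a group had 0 counts, the fold is given as "at least", with 3 counts over that group in the place of 0 and the counts of the other group pooled. Shares have 95% exact (Clopper-Pearson) intervals, which cover counting error only. Values are means over 4 libraries with SD, or fold changes with SE. The SE is the absolute log2 change divided by the square root of the test's F value. It can be too small where a group has few counts. Counting error alone exceeds it for the changes of CHRND, CHRNG and ERBB3 from day 0 in LHCN-M2. The scripts were tested on simulated data.

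Replicate pairs differed beyond sampling noise (chi-square per degree of freedom 6.83 to 23.7 in C2C12 and 6.32 to 151.7 in LHCN-M2). Human coordinates are the table's, on GRCh38; 1389 of 50719 mouse symbols had the start and end that GENCODE M21 gives them on mm10, so the mouse table's coordinates were not used, and mouse promoters carry RefSeq coordinates of GRCm38.p6. The 10 genes, the lists and the tests were chosen with earlier results of these data known. Named genes of a list are the up to 6 with the largest change at the last day among those called whose libraries do not overlap, plus ACHE, COLQ, MYOG and MYOD1. Alternatives were DESeq2 1.42.0, RLE factors, other filters, other sets of libraries, a replicate block and other added counts in the ratio.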

Additional observations from a re-analysis of the deposited data

Results flagged for a closer look

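In 3 of 59 groups of 4 libraries, 1 library lay far from the other 3 (Dixon's test; chance flags about 1 in 20 groups). CHRNA1 in replicate 2 of LHCN-M2 day 0 was at 561 CPM against 438 to 455 CPM, CHRNE in replicate 3 of that day at 0.516 CPM against 0 to 0.0796 CPM, and Dok7 in replicate 2 of C2C12 day 1 at 0.937 CPM against 1.98 to 2.19 CPM.

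In 25 of 27 tests the log2 change differed between the lines (LHCN-M2 minus C2C12, adjusted p below the threshold). The 27 tests are 9 genes in 3 comparisons that share libraries, so they are not separate results. Such calls were common over all 10953 symbols. At day 1 against day 0, 26.0% were larger and 34.0% smaller in LHCN-M2. The shares were 31.2% and 40.0% at the last day against day 0, and 27.0% and 29.9% from day 1 to the last day. At day 1 against day 0 the differences were 7.03 for CHRND, 7.58 for CHRNG, 1.40 for MUSK and 0.99 for AGRN on the higher side, and -0.58 for CHRNA1, -0.87 for CHRNB1 and -1.91 for DOK7 on the lower (-2.74 for DOK7 without replicate 1 of C2C12 day 0). At the last day against day 0 they were 6.06 for CHRND, 4.96 for CHRNG, 2.34 for LRP4, 1.85 for AGRN and 0.78 for MUSK, and -3.04 for CHRNA1, -1.69 for CHRNB1, -3.12 for DOK7 (-3.90 without the same library) and -1.35 for RAPSN. From day 1 to the last day they were 2.25 for LRP4 and 0.86 for AGRN, and -2.46 for CHRNA1, -0.82 for CHRNB1, -0.97 for CHRND, -2.62 for CHRNG, -0.63 for MUSK, -1.20 for DOK7 and -1.23 for RAPSN. The last days differ, 6 in C2C12 and 12 in LHCN-M2, and species and line cannot be told apart.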

How the results depend on the processing

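No alternative run, leaving out libraries included, reversed the direction of a called change of the 10 genes. DESeq2 and RLE factors changed none of the 84 and 57 single-gene calls, and no filter, a stricter filter and TMM over all 24 libraries changed none of 57, 81 and 27; the last moved the median difference between the lines by 0.11 at day 1 and at the last day against day 0, and by 0.0004 at the last day against day 1. The same replicate number did not pair libraries (correlations of -0.05 to 0.04 in C2C12 and -0.10 to 0.09 in LHCN-M2, own number best in 1 and 5 of 12), and the replicate block changed none of 84 calls: 8 genes higher and 1 lower at day 6 of C2C12, 9 and 0 at day 12 of LHCN-M2. Leaving out 1 library kept 870 of 888 single-gene calls; 17 were lost and 1 was gained, all named above. Counts of called genes then ranged from 8 to 9 (C2C12 day 1 and day 6 against day 0, LHCN-M2 day 1 against day 0), 7 to 8 (C2C12 day 6 against day 1), 5 to 6 (LHCN-M2 day 12 against day 1), 6 to 8 (smaller changes in LHCN-M2 from day 1) and 4 to 5 (smaller changes in LHCN-M2 from day 0 to the last day). The step from 8 to 9 in C2C12 is Chrne passing the filter. The γ to ε ratio of C2C12 moved with the added count, since ε was at 0 at day 0: with 1 count added, day 1 against day 0 was 0.031 and day 6 against day 0 was 2.24, and with 0.1 counts -2.13 and -0.97, against -0.56 and 1.30. With 1 count added, the adjusted p of day 6 against day 0 of C2C12 and of the 3 LHCN-M2 pairs (7.37, 11.37 and 4.00) passed the threshold, at 0.0429. Leaving out 1 library, the LHCN-M2 ratio changes ranged from 6.61 to 8.40, 10.73 to 12.69 and 3.50 to 4.64. Transcript length could be exchanged in the mouse only and leaves differences between days in the log2 ratio as they are. It does move the levels, the shares and the γ to ε ratio per kilobase of each day. The alternative without both LHCN-M2 libraries that stood apart was chosen after seeing the data; it changed 1 of 57 calls, MUSK from day 1 to day 12. Depth limits CHRNE, at most 34 counts in any library.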
